A study of Glycine max with 18 samples.

Results

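Late embryogenesis abundant (LEA) proteins are hydrophilic or membrane-associated proteins that plants accumulate in maturing seeds and in vegetative tissue that loses water. Dehydrins are one of their groups, marked by a lysine-rich K-segment, and are used as indicators of cellular dehydration in many crops. A further group, the LEA hydroxyproline-rich glycoprotein family, carries the LEA2 domain and includes the NDR1/HIN1-like proteins, several of which are known in Arabidopsis from defence and senescence rather than from drought. The transcripts of 4 soybean genes of these groups were followed here in the roots of 2 cultivars during dehydration.

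The 4 genes were taken by name. Glyma.16G038000 matches AT1G54410, which encodes a small KS-type dehydrin in Arabidopsis. The other 3 match members of the LEA hydroxyproline-rich glycoprotein family, namely Glyma.11G020600 (AT1G64065), Glyma.13G000500 (AT3G54200) and Glyma.19G198800 (AT2G35980, known in Arabidopsis as YLS9 or NHL10). By their identifiers they lie on chromosomes 16, 11, 13 and 19, and each was represented by 1 probe, so that they make up 4 of the 66195 probes on the array.

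Roots of 14-day-old soybean seedlings were hybridised to 18 one-colour arrays, 3 for each of 6 groups. Williams 82 (W82), a drought-sensitive cultivar, was sampled unstressed (W-C) and after 2 h (W-D2) or 10 h (W-D10) of dehydration. DT2008, a Vietnamese cultivar labelled as more drought tolerant, gave the matching groups DT-C, DT-D2 and DT-D10. Dehydration meant that whole plants were lifted from watered pots, rinsed and left to dry in air. The drying room was cooler and dimmer than the greenhouse, and the 0 h groups were the only controls. The time out of the pot, the change of temperature and light, and the loss of water thus cannot be told apart. All values below are log2 values relative to the median of the same probe over the 18 arrays, because the deposited values had been centred in this way. A value of 0 is thus the middle of that probe's own range, differences between groups are log2 fold changes, and no statement about which gene is the more abundant can be made. In bulk roots, fewer cells expressing a gene and less transcript per cell cannot be told apart. Changes were tested with limma over all probes, and a gene was called up- or downregulated at a Benjamini-Hochberg adjusted p under 0.05 with a change of at least 2-fold.

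All 3 patterns that the 4 genes showed are visible in the values of single arrays. Glyma.16G038000 and Glyma.11G020600 rose strongly within 2 h in both cultivars as deposited and after quantile normalization or centring of the arrays (negative under cyclic loess, which had no probe brightness to model), Glyma.19G198800 rose more moderately and had higher means in DT2008 than in W82 at each time, and Glyma.13G000500 differed between the cultivars at every time while its dehydration changes did not pass the test.

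**Figure D1:**
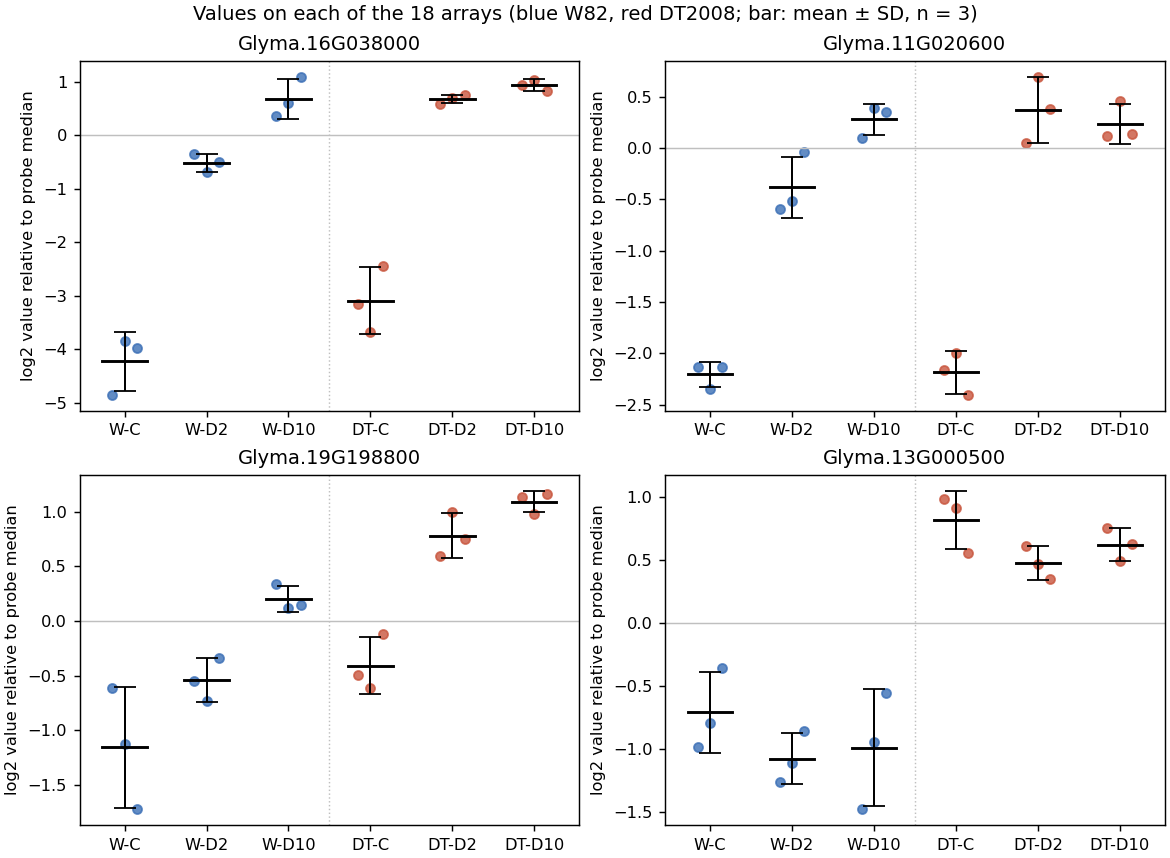
Log2 value relative to the probe median (y axis) of each of the 4 genes on each array, by group (x axis), with blue points for W82, red points for DT2008, and black bars for the mean ± SD of 3 arrays. Glyma.16G038000 climbs from -4.22 in W-C to 0.69 in W-D10, whereas for Glyma.13G000500 the 9 DT2008 arrays all lie above the 9 W82 arrays.

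Among the dehydration comparisons, 2 of the 4 genes were upregulated in W-D2/W-C, where 1.83% of all probes were, and 3 of the 4 in W-D10/W-C, where 3.49% were. In DT2008 the count was 3 of 4 at both times, against a background of 2.89% for DT-D2/DT-C and 2.75% for DT-D10/DT-C. The methods' t-test, in which each comparison had only its own spread, kept 7 of the 18 calls made over all comparisons and none of those at 2 h against the controls. None of the 4 was downregulated in any of the 9 comparisons, with limma and no downward value at an unadjusted p under 0.05. The share of all probes downregulated was 0.884% and 1.66% at 2 and 10 h in W82, 1.19% and 1.71% in DT2008, 2.07%, 2.56% and 1.2% between the cultivars at 0, 2 and 10 h, and 0.991% and 0.986% from 2 to 10 h in W82 and DT2008. These counts are partly fixed by how the genes came to attention, since the study had listed Glyma.16G038000 and Glyma.11G020600 as upregulated in W-D10/W-C and DT-D10/DT-C, Glyma.19G198800 in DT-D10/DT-C and Glyma.13G000500 in DT-D2/W-D2 from these same arrays. Those contrasts are therefore not independent evidence of direction for those genes, and contrasts that share the same control arrays lean on the same values.

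The dehydrin-type gene Glyma.16G038000 had the largest dehydration changes of the 4 genes. Its unstressed W82 arrays read -4.86, -3.84 and -3.98, the 2 h arrays -0.36, -0.68 and -0.50, and the 10 h arrays 0.36, 0.61 and 1.09. The 3 groups did not overlap, and each later group lay wholly above the earlier one. The change in W-D2/W-C was 3.71 (SE 0.27, adjusted p = 7.78e-08, limma), a 13.1-fold increase that ranked 15th among the increases of the 66195 probes. At 10 h it reached 4.91 (SE 0.27, adjusted p = 1.07e-09), or 30.1-fold, and ranked 13th among increases. The step from 2 to 10 h in W82 was itself called, with 1.20 (adjusted p = 0.00883), in a comparison where 1.45% of probes were upregulated. That call depended on one array, since without W-D10 replicate 3 the change was 0.998, just under 2-fold, with an adjusted p of 0.0475. It was also lost with the methods' t-test (adjusted p = 0.132) and under cyclic loess, where the log2 change was 0.016.

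In DT2008, the same gene read -3.15, -3.69 and -2.43 in DT-C, 0.59, 0.70 and 0.75 in DT-D2, and 0.94, 1.04 and 0.82 in DT-D10. The dehydrated arrays were tightly grouped, with SDs of 0.08 at 2 h and 0.11 at 10 h, against 0.63 in DT-C and 0.55 in W-C. The change at 2 h was 3.77 (SE 0.27, adjusted p = 3.52e-08), or 13.7-fold, and that at 10 h was 4.03 (SE 0.27, adjusted p = 1.48e-08), or 16.3-fold. From 2 to 10 h the change in DT2008 was 0.25 (95% interval -0.32 to 0.82, adjusted p = 0.689), although the arrays of the 2 times did not overlap. Cyclic loess normalization, which here had no probe brightness to work on, turned the 4 dehydration changes of Glyma.16G038000 to between -0.95 and -0.081. As deposited, the mean change at 2 h amounted to 93.7% of that at 10 h in DT2008 and to 75.5% in W82.

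Between the cultivars, Glyma.16G038000 was higher in DT2008 before stress and at 2 h. The DT-C/W-C difference was 1.13 (SE 0.27, adjusted p = 0.0103), with the lowest DT-C array at -3.69 and the highest W-C array at -3.84. It was no longer called without W-C replicate 1 (0.82, adjusted p = 0.0679) or without DT-C replicate 3 (0.81, adjusted p = 0.0673), nor when only the arrays of those groups were fitted (adjusted p = 0.0613). At 2 h the difference was 1.20 (adjusted p = 0.00619), and at 10 h it was 0.25 (95% interval -0.32 to 0.82, adjusted p = 0.720), with overlapping arrays. Ordered by mean, the groups ran W-C, DT-C, W-D2, DT-D2, W-D10 and DT-D10, and the last 3 overlapped with their neighbours. The unevenness between cultivars did not pass the test of the difference itself, with interaction values of 0.06 at 2 h (adjusted p = 0.971), -0.88 at 10 h (95% interval -1.70 to -0.07, adjusted p = 0.380) and -0.95 from 2 to 10 h (95% interval -1.76 to -0.13, adjusted p = 0.305).

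Glyma.11G020600, a LEA hydroxyproline-rich glycoprotein gene, started from the same level in both cultivars. It read -2.14, -2.35 and -2.14 in W-C and -2.16, -2.00 and -2.41 in DT-C, so that the DT-C/W-C difference was 0.02 (95% interval -0.36 to 0.40, adjusted p = 0.970). After 2 h the W82 arrays read -0.59, -0.52 and -0.04 and the DT2008 arrays 0.04, 0.69 and 0.37. All 6 dehydrated arrays lay more than 1 log2 unit above the control arrays of their own cultivar, and the highest W82 array was just below the lowest DT2008 array. In W82 the change was 1.82 (SE 0.18, adjusted p = 3.02e-06), or 3.53-fold, and in DT2008 2.56 (SE 0.18, adjusted p = 2.76e-08), or 5.88-fold.

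At 10 h, Glyma.11G020600 read 0.10, 0.39 and 0.35 in W82 and 0.11, 0.46 and 0.13 in DT2008, and the cultivars overlapped again. The changes from the controls were 2.48 (SE 0.18, adjusted p = 2.60e-08) and 2.42 (SE 0.18, adjusted p = 4.66e-08), or 5.59-fold and 5.36-fold. The W82 arrays moved up between 2 and 10 h by 0.66 (adjusted p = 0.0274), which is under 2-fold, and the DT2008 value was -0.13 (95% interval -0.52 to 0.25, adjusted p = 0.767). After cyclic loess normalization the 4 dehydration changes of Glyma.11G020600 were negative, between -1.06 and -0.78. That fit had no probe brightness to work on and says nothing about this gene. As a share of the 10 h change as deposited, the 2 h change was 73.3% in W82 and 106% in DT2008. The 2 h difference between cultivars, 0.75 in DT-D2/W-D2 (adjusted p = 0.00893), was likewise under 2-fold, and the 10 h difference was -0.04 (95% interval -0.42 to 0.34, adjusted p = 0.943). The interaction was 0.74 at 2 h (95% interval 0.20 to 1.28, adjusted p = 0.247) and -0.80 from 2 to 10 h (95% interval -1.34 to -0.26, adjusted p = 0.178), so that an earlier rise in DT2008 was seen in the means and was not called over all probes.

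Glyma.19G198800, the YLS9/NHL10 match, changed less and from a more variable control. Its W-C arrays read -0.61, -1.13 and -1.72, the W-D2 arrays -0.55, -0.73 and -0.33, and the W-D10 arrays 0.34, 0.11 and 0.15. The W-C and W-D2 arrays overlapped, and the W-D10 arrays lay above both groups. The W-D2/W-C value was 0.61 (SE 0.21, adjusted p = 0.0902), which was not called, and the W-D10/W-C change was 1.35 (SE 0.21, adjusted p = 1.87e-04), or 2.56-fold. In DT2008 the arrays read -0.49, -0.62 and -0.11 unstressed, 0.59, 1.00 and 0.75 at 2 h, and 1.13, 0.98 and 1.16 at 10 h. Here the dehydrated arrays were separate from the controls at both times, with changes of 1.19 (SE 0.21, adjusted p = 8.72e-04) and 1.50 (SE 0.21, adjusted p = 7.77e-05), or 2.28-fold and 2.83-fold. The 2 h share of the 10 h change was 45.3% in W82, the lowest of the 3 responding genes, and 79.2% in DT2008.

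The cultivar difference of Glyma.19G198800 had the same sign at the 3 times. Before stress it was 0.75 (adjusted p = 0.0277) and at 10 h 0.89 (adjusted p = 0.0187), both under 2-fold, and at 2 h it was 1.32 (SE 0.21, adjusted p = 3.98e-04), which was called at 2.49-fold. The DT2008 arrays were all above those of W82 at 2 h and at 10 h, and overlapped with them before stress. Without W-C replicate 1, the DT-C/W-C difference became 1.02 (adjusted p = 0.00326) and was then called. None of the 3 interactions was called (0.57, 0.14 and -0.43, adjusted p = 0.484, 0.908 and 0.621), and the response itself was thus not shown to differ between the cultivars.

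Glyma.13G000500, a LEA hydroxyproline-rich glycoprotein gene matching AT3G54200, separated the cultivars. Its W82 arrays read -0.98, -0.79 and -0.35 unstressed, -1.26, -1.11 and -0.85 at 2 h, and -1.47, -0.94 and -0.55 at 10 h. The DT2008 arrays read 0.99, 0.92 and 0.56, then 0.62, 0.47 and 0.35, then 0.75, 0.49 and 0.63. The 9 W82 arrays ended at -0.35 and the 9 DT2008 arrays began at 0.35, the symmetry of those 2 values following from the centring, and within each cultivar the groups overlapped. Unstressed plants differed by 1.53 (SE 0.21, adjusted p = 7.35e-05), those at 2 h by 1.55 (SE 0.21, adjusted p = 6.49e-05) and those at 10 h by 1.61 (SE 0.21, adjusted p = 7.45e-05), or 2.88-fold, 2.94-fold and 3.06-fold. In DT-D10/W-D10 it was the only one of the 4 genes to be called, where 0.523% of all probes were upregulated.

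After 2 and 10 h of dehydration this gene stood at -0.37 and -0.28 relative to the controls of W82 and at -0.34 and -0.19 relative to those of DT2008, with adjusted p between 0.345 and 0.644. The 95% intervals of these values ran no lower than -0.80 and no higher than 0.24, so that a 2-fold change in either direction lay outside each of them. The interactions of Glyma.13G000500 were 0.03, 0.09 and 0.06, with adjusted p of 0.948 or more. Its cultivar difference was called in each of the 18 fits that left out 1 array, between 1.37 and 1.83 over the 3 times.

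**Figure D2:**
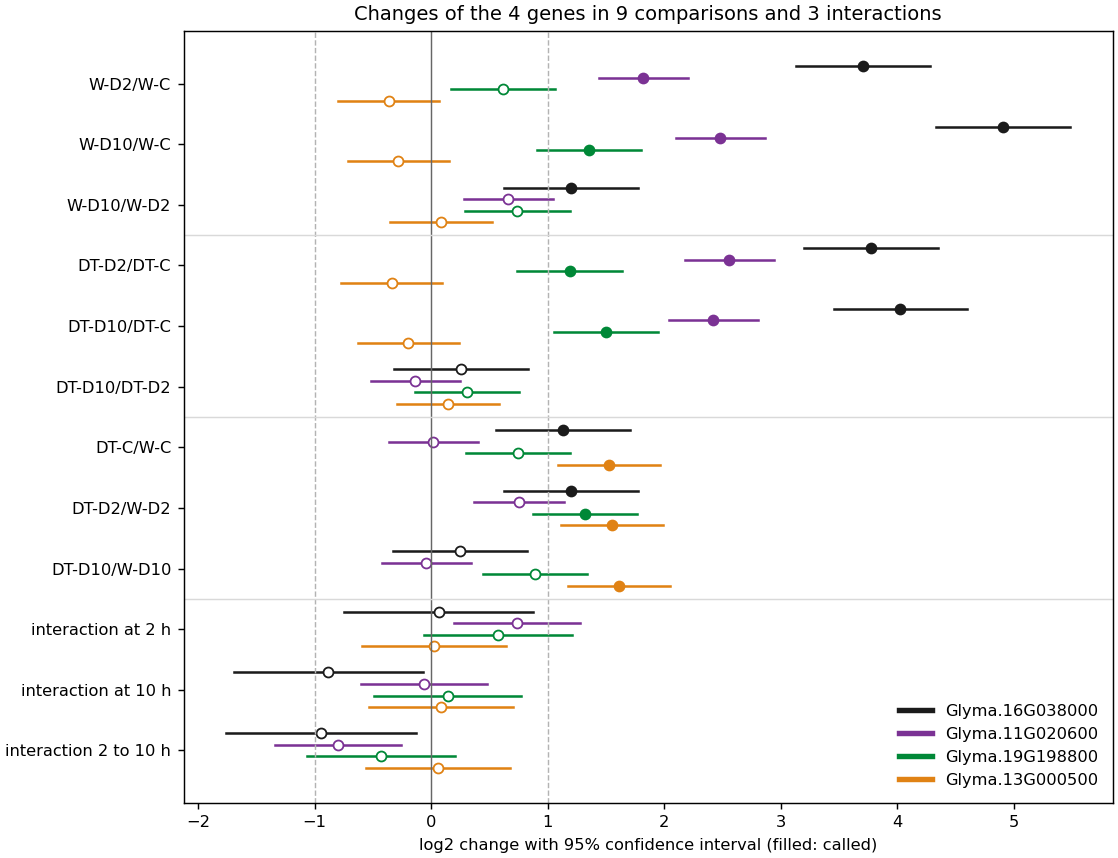
Log2 change (x axis) with its 95% confidence interval for the 4 genes in the 9 comparisons and 3 interactions (y axis). Filled points were called, and the dashed lines mark a 2-fold change. The called changes of Glyma.13G000500 lie in the cultivar comparisons, at 1.53 to 1.61, and no interaction is filled.

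Across the cultivar comparisons, 2 of the 4 genes were called in DT-C/W-C (1.44% of all probes), 3 in DT-D2/W-D2 (1.65%) and 1 in DT-D10/W-D10, and every call was for a higher value in DT2008. Counting arrays instead of tests, all 4 genes had DT-D2 arrays wholly above the W-D2 arrays, against 17.3% of all probes, and 2 were so separated at 0 h (background 14.5%) and 2 at 10 h (background 11.8%). The arrays of dehydrated plants lay wholly above the controls for 2 genes at 2 h in W82 and 3 in the other dehydration comparisons, where the background was 13.5%, 15%, 12.4% and 13.5%, and those at 10 h above those at 2 h for 3 genes in W82 (background 13%) and 1 in DT2008 (background 12.1%). By adjusted p alone, 2 of 4 were higher in DT-D10/W-D10 (2.16% of all probes) and 3 of 4 in W-D10/W-D2 (4.53%). DT-D10/DT-D2 gave no call among the 4 genes (background 1.24% upregulated), and 0 of 4 reached an unadjusted p under 0.05 with limma or a call with the methods' t-test. With limma, 0 of 4 were called in the interactions at 2 h (background 0.287% for the higher and 0.133% for the lower direction), at 10 h (0.156% and 0.239%) and from 2 to 10 h (0.183% and 0.292%), and 1, 1 and 2 of 4 had an unadjusted p under 0.05.

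**Figure D3:**
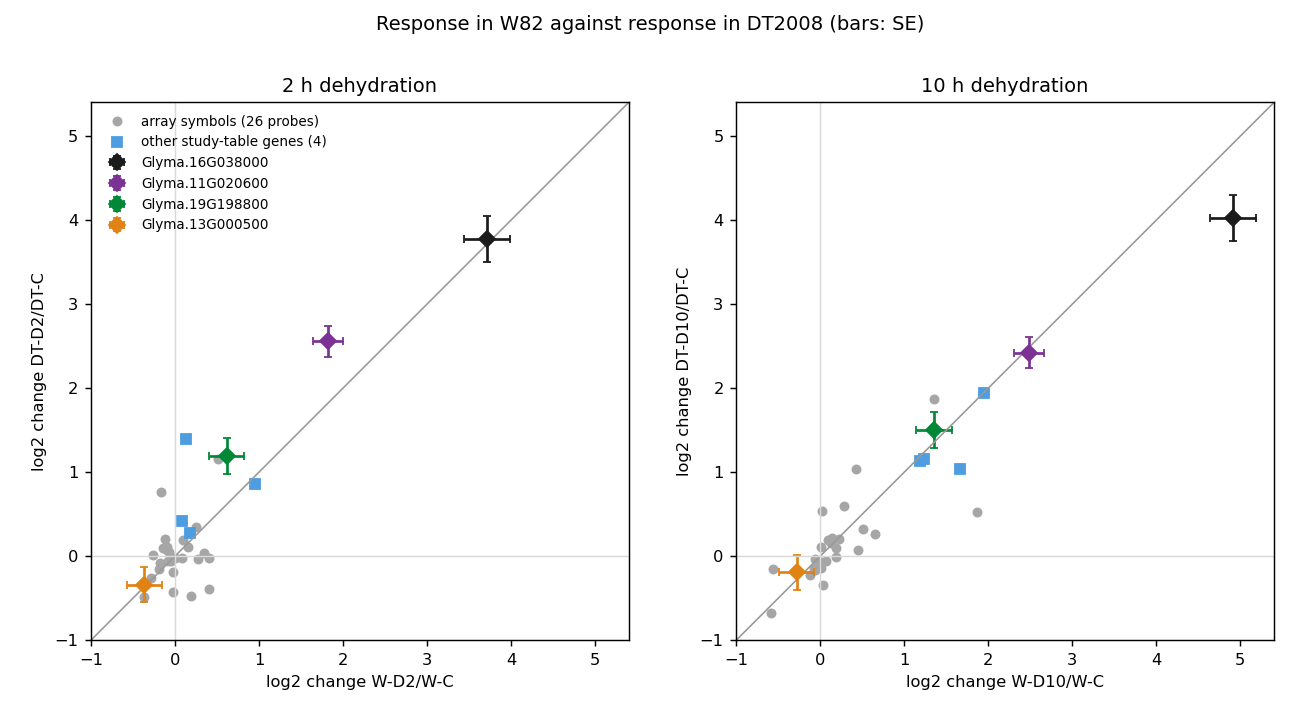
Log2 change in W82 (x axis) against that in DT2008 (y axis) after 2 h (left) and 10 h (right) of dehydration, with SE bars for the 4 genes and a line of equal change. Blue squares are 4 further LEA-related genes of the study's lists and grey points the 26 remaining probes with LEA or seed maturation array symbols. Glyma.11G020600 lies at 1.82 and 2.56 in the left panel and at 2.48 and 2.42 in the right one.

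Over the 18 arrays, the 3 responding genes followed each other. Pearson's r was 0.955 between Glyma.16G038000 and Glyma.11G020600, 0.808 between Glyma.16G038000 and Glyma.19G198800, and 0.767 between Glyma.11G020600 and Glyma.19G198800. With the group means removed, the same pairs gave -0.189, -0.135 and 0.055, so that the likeness lay in the 6 group means. Glyma.13G000500 gave 0.055, -0.042 and 0.434 with those genes in that order. Because arrays of one group share cultivar and treatment, these values are descriptions of the pattern over 6 groups.

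Of 4817 other probes paired with a single gene, those most like Glyma.16G038000 belonged to Glyma.12G203100, an AP2 transcription factor gene (r = 0.987), Glyma.06G249600 (0.987), Glyma.12G033400 (0.984), Glyma.17G104300 (0.982) and Glyma.04G099800 (0.979). Closest to Glyma.11G020600 were Glyma.06G153300, a DNA repair metallo-beta-lactamase gene (r = 0.992), Glyma.18G273100, which matches the receptor kinase ANX2 (0.987), Glyma.17G073400, an early nodulin-like protein gene (0.985), and both probes of LOC100305836 (0.983 each). The pattern of Glyma.19G198800 was nearest to that of LOC100306091 (r = 0.958), followed by Glyma.13G332900 (0.942), Glyma.04G228700 (0.941), Glyma.14G215700 (0.938) and Glyma.11G087700, which matches a tonoplast monosaccharide transporter (0.932). For the cultivar pattern of Glyma.13G000500, the nearest were Glyma.16G018000, which matches the clock component PRR5 (r = 0.966), Glyma.06G013600 (0.953), Glyma.17G262700, a pentatricopeptide repeat gene (0.952), and the small heat shock protein genes HSP22.5 (0.943) and Glyma.12G115300 (0.936). Many of the candidate probes are paired with a gene only because the study listed them as changed.

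A second gene matching AT3G54200 behaved unlike Glyma.13G000500. Glyma.01G239100 read -0.35, -0.46 and -0.92 in W-C, -0.58, -0.42 and -0.35 in W-D2, and 1.11, 1.64 and 1.35 in W-D10. In DT2008 it read -0.95, -0.50 and -0.25 unstressed, 0.25, 1.29 and 0.96 at 2 h, and 1.00, 1.99 and 1.13 at 10 h. The W82 arrays thus stayed at the control level for 2 h and were all high at 10 h, whereas the DT2008 arrays had left the control range at 2 h. In W82, the values of Glyma.01G239100 were 0.13 (SE 0.27, adjusted p = 0.854) at 2 h and 1.95 (adjusted p = 5.69e-05) at 10 h, the latter being the contrast on which the study had listed it. The DT2008 changes were 1.39 (adjusted p = 0.00188) at 2 h and 1.94 (adjusted p = 7.05e-05) at 10 h. Its DT-D2/W-D2 difference was 1.28 (adjusted p = 0.00372), and neither the interaction at 2 h, 1.26 (adjusted p = 0.172), nor that from 2 to 10 h, -1.28 (adjusted p = 0.145), was called. Both were called without DT-D2 replicate 1 (1.56 and -1.57, adjusted p = 0.0413 and 0.0296), and the latter also with array weights (adjusted p = 0.0452) and with adjustment over single-gene probes (adjusted p = 0.0490). The methods' t-test lost the DT2008 changes at 2 and 10 h (adjusted p = 0.196 and 0.0993) and the DT-D2/W-D2 difference (adjusted p = 0.124).

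The 3 groups of further LEA-related genes give the setting of these changes, and the first comprises the 3 other genes that the study's lists describe as LEA genes. Glyma.19G211600 (AT4G02380), of the LEA3 family, Glyma.12G001600 (AT1G72100, array symbol PM27) and Glyma.13G363300 (AT1G52690, array symbol PM30) were all 3 upregulated at 10 h in both cultivars. In W82 at 10 h they changed by 1.67 (adjusted p = 2.64e-07), 1.19 (adjusted p = 1.09e-04) and 1.23 (adjusted p = 0.00167), and in DT2008 by 1.03 (adjusted p = 7.74e-05), 1.13 (adjusted p = 2.08e-04) and 1.16 (adjusted p = 0.00315). The DT2008 calls were close to the 2-fold threshold, and without DT-D10 replicate 2 the changes of Glyma.19G211600, Glyma.12G001600 and Glyma.13G363300 were 0.90, 0.96 and 0.74, so that 0 of the 3 were called, each still with an adjusted p under 0.05. The methods' t-test also left 0 of the 3 called in DT2008 at 10 h (adjusted p = 0.0919, 0.0890 and 0.263 in that order). The DT2008 call of Glyma.19G211600 was lost as well without DT-C replicate 1 (0.968) or 2 (0.974). At 2 h none of the 3 was called in either cultivar, with limma and an unadjusted p under 0.05 for 1 of 3 in each, namely Glyma.19G211600. That gene had already risen at 2 h, by 0.95 (adjusted p = 3.40e-04) in W82 and 0.86 (adjusted p = 5.72e-04) in DT2008, and missed only the fold threshold. In W82 it reached 1.01, and a call, without W-D2 replicate 2. The study had chosen these 3 from W-D10/W-C, and their W-D10/W-C direction is not independent evidence.

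The second group, the 26 remaining probes with a LEA or seed maturation symbol on the array, had few calls. PM27 and PM30, called at 10 h in both cultivars, carry such symbols too. They were counted in the first group because the study's lists describe them as LEA genes. The low number of calls here is thus partly fixed by that split. Called as upregulated were 0 in W82 at 2 h (1 of 26 at an unadjusted p under 0.05 with limma), 2 in W82 at 10 h, 1 in DT2008 at 2 h and 2 in DT2008 at 10 h, and no call was downward. The shares of all probes upregulated were 1.83%, 3.49%, 2.89% and 2.75% in that order. Medians over the 26 were, in the same order, -0.04, 0.08, -0.02 and 0.09, beside -0.02, -0.03, -0.02 and -0.02 over all probes. At 10 h PM12 rose by 1.35 (adjusted p = 0.00297) in W82 and by 1.87 (adjusted p = 1.86e-04) in DT2008, where it had risen by 1.16 (adjusted p = 0.0116) at 2 h. The 10 h change of PM35 was 1.87 (adjusted p = 0.00133) in W82 and the value in DT2008 was 0.52. PM35 averaged -1.08 in W-C and 0.22 in DT-C, and 0.78 in W-D10 and 0.74 in DT-D10. PM9 rose by 1.03 (adjusted p = 0.0114) in DT2008, and its W82 value was 0.43 (adjusted p = 0.307). In the interaction at 10 h 0 of the 26 were called, with 1 at an unadjusted p under 0.05 with limma. A cultivar difference in these responses was thus not shown. The 2 h call of PM12 was lost without DT-C replicate 1 (0.85) and without DT-D2 replicate 2 (1.02) or 3 (0.94), and that of PM9 without DT-C replicate 2 (0.99) and without DT-D10 replicate 1 (0.96) or 2 (0.73). Not each of these symbols denotes a LEA protein. The third group, other LEA hydroxyproline-rich glycoprotein or NDR1/HIN1-like genes, held Glyma.01G239100 alone.

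**Figure D4:**
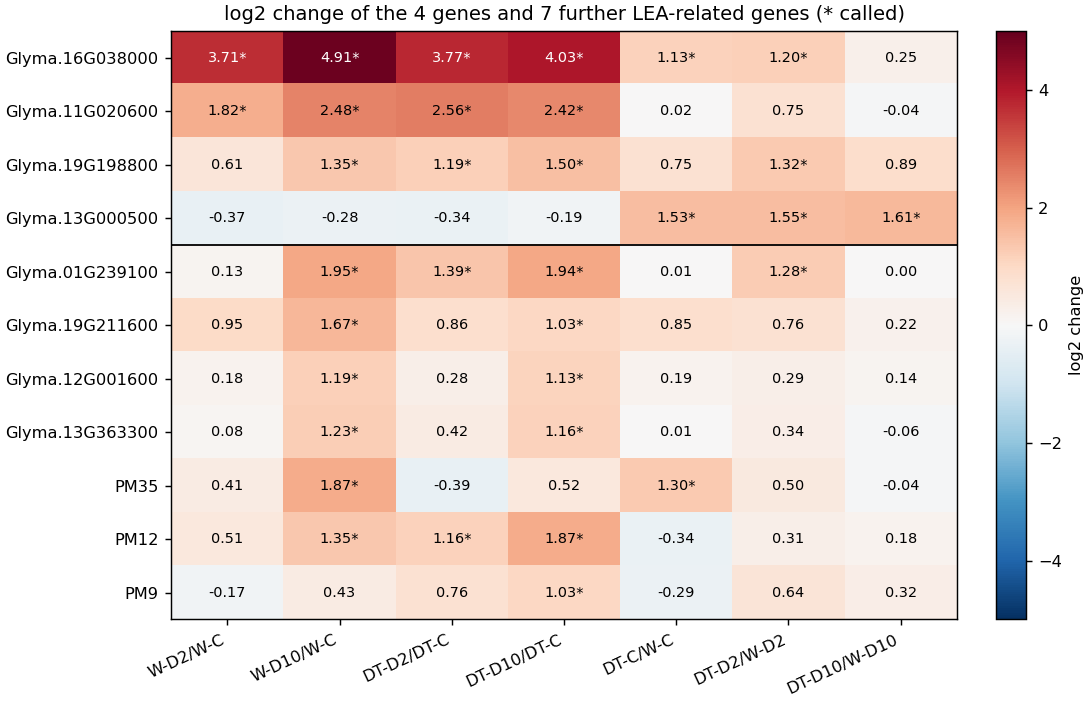
Log2 change (colour and printed value) of the 4 genes, above the line, and of 7 further LEA-related genes, below it, in 4 dehydration and 3 cultivar comparisons (columns), with an asterisk for called changes. Glyma.16G038000 carries the deepest colour, at 4.91 in W-D10/W-C, and the 3 LEA genes Glyma.19G211600, Glyma.12G001600 and Glyma.13G363300 are called at 10 h and not at 2 h. Glyma.19G211600 was higher at 2 h as well, by 0.95 in W82 and 0.86 in DT2008, just under 2-fold.

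The arrays bear on these values as follows. Pearson's r between arrays of one group ran from 0.369 to 0.721, lowest within W-D10, and array medians lay between -0.02 and 0.02. Residual SDs of Glyma.16G038000, Glyma.19G198800, Glyma.13G000500 and Glyma.11G020600 were 0.38, 0.28, 0.27 and 0.23, the first larger than those of 93.1% of probes. Because centred values carry no level, the presence of root, shoot or nodule transcripts could not be read from them. The 9 probes taken as shoot markers had a photosynthesis symbol or description. Of them, 2 and 3 were upregulated at 2 and 10 h in W82 (1.83% and 3.49% of all probes). In DT2008 3 and 2 were (2.89% and 2.75%), and 1 was downregulated, at 10 h in W82 (1.66%). Of these 9, 3 were also called higher in DT-D2/W-D2 (1.65%). Each probe with such a call had been listed by the study as changed on these arrays, so these counts are not independent evidence. CAB3, PSAD and LOC547819, found by array symbol, had none of these calls. Under 2-fold, PSAD was higher in DT2008 at 0, 2 and 10 h, by 0.99, 0.85 and 0.89 (adjusted p = 0.00607, 0.0151 and 0.0237, limma). CAB3 did not pass in those 3 comparisons (adjusted p = 0.367, 0.426 and 0.947), and its DT-D10/DT-C change was -0.90 (adjusted p = 0.00678). Glyma.02G106000, upregulated in all 4 dehydration comparisons, and Glyma.01G045700 match AT1G69680 and entered by description only. Of 4 nodule probes, ENOD93 fell in W82 at both times, by 1.71 and 2.49 on the log2 scale, and was lower in DT-C than in W-C, with -1.80 (adjusted p = 8.26e-05). In that comparison ENOD40B was called higher in DT-C, with 1.04 (adjusted p = 0.0490), NOD33 was higher by 0.49 (adjusted p = 0.0182), under 2-fold, and ENOD55-1 had -0.04 (adjusted p = 0.940). The part of these marker shifts in the changes of the 4 genes was not tested.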

How the data were processed

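Total RNA from roots was hybridised by the authors to the Affymetrix Soybean GeneChip, and RMA values were produced with Affymetrix Expression Console. The deposited log2 values are centred on each probe's median over the 18 arrays, as tested on the file (largest absolute median 5e-07), so that probe brightness, and with it the distance from background, is not used here. The number of arrays, 3 per group, limits the precision. Replicates are described as biological repeats.

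Glyma identifiers were paired with probes by the study's own tables and other symbols by the array annotation, which gave 4821 probes with exactly 1 gene. None of the 4 genes was found in the reference gene table, and no sequence or coordinate is given. The genes and lists were chosen with earlier results of these data known.

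One mean per group was fitted to all 18 arrays with limma 3.58.1 in R 4.3.3 (lmFit, contrasts.fit and eBayes, 12 residual and 6.28 prior degrees of freedom), and p was adjusted over 66195 probes by Benjamini-Hochberg. The procedure was tested on simulated data. Named are the 4 genes, the 5 probes most like each, the LEA genes of the study's tables, and up to 4 called genes of the other lists per dehydration comparison. Alternatives were the methods' t-test, other normalizations and eBayes settings, array weights, fits of the compared groups alone, no fold threshold, a replicate block and leaving out each array. For the further LEA-related genes they were added after seeing the data, apart from list counts under quantile normalization and without a fold threshold. Same-numbered arrays did not deviate together (correlations of -0.17 to 0.11 over 27 pairs), and the numbers were not used to pair samples. Columns of fold changes and q-values in the study's tables were not used.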

Additional observations from a re-analysis of the deposited data

How the results depend on the processing

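The 48 results of the 4 genes (12 comparisons each, 18 calls) kept their direction and side of the threshold under array weights, eBayes with trend and robust settings, centring of each array and adjustment over single-gene probes. With the replicate number as a block they also did, with 18 calls, although the numbers do not pair the arrays. The methods' t-test, run on 3 against 3 arrays and 9 comparisons, kept every direction and left 7 calls, with 0 of the 4 genes called at 2 h in either cultivar and in DT-C/W-C, DT-D10/W-D10 and W-D10/W-D2. There the adjusted p for Glyma.16G038000 was 0.0538 at 2 h in W82, 0.0557 at 2 h in DT2008, 0.329 in DT-C/W-C and 0.132 in W-D10/W-D2, that for Glyma.11G020600 was 0.0622 and 0.0522 at 2 h in W82 and DT2008, that for Glyma.13G000500 was 0.0853 in DT-C/W-C and 0.152 in DT-D10/W-D10, and that for Glyma.19G198800 was 0.125 at 10 h in W82, 0.101 at 2 h in DT2008 and 0.0535 in DT-D2/W-D2, for unchanged differences of 3.71, 3.77, 1.13, 1.20, 1.82, 2.56, 1.53, 1.61, 1.35, 1.19 and 1.32. Fitting only the arrays compared, or quantile normalization (0.77), left 1 gene called in DT-C/W-C, Glyma.16G038000 being lost (1.13 in the former). Without a fold threshold, 2 genes passed in DT-D10/W-D10 and 3 in W-D10/W-D2.

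Cyclic loess, which models differences against probe brightness and was here fitted to values that hold none, turned Glyma.11G020600 to -0.84 and -1.06 at 2 and 10 h in W82 and to -0.85 and -0.78 in DT2008, and Glyma.16G038000 to -0.098 and -0.081 in W82 and to -0.95 and -0.38 in DT2008, with the -1.06 called as downregulated (1 gene). It left 0, 1, 1 and 1 genes upregulated in these comparisons, 1 in DT-C/W-C and 0 in W-D10/W-D2, with 0.95 for Glyma.16G038000 in DT-C/W-C, 0.10 in DT-D2/W-D2 and 0.016 in W-D10/W-D2. With no brightness, a probe's own change sets its place in that fit, which therefore says nothing about these genes. Quantile normalization and centring of each array kept all their dehydration calls.

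Leaving out each array in turn reversed no called change. Besides the calls named with the results, the changes of Glyma.16G038000 ran from 3.39 to 3.90 in W-D2/W-C, 4.59 to 5.10 in W-D10/W-C, 0.81 to 1.43 in DT-C/W-C and 0.998 to 1.37 in W-D10/W-D2, and that of Glyma.19G198800 from 0.46 to 1.02 in DT-C/W-C. For the further LEA-related genes, the settings were added after seeing the data, apart from list counts under quantile normalization and without a fold threshold. No called dehydration or cultivar change of these genes reversed under the settings. Cyclic loess was among them, and without brightness it says nothing about these genes either. The methods' t-test left 0 calls among the 26 remaining probes with LEA or seed maturation symbols at 10 h in each cultivar.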
